A study of Homo sapiens with 15 samples.

Results

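The genes described here are 10 that fibroblasts use to build the extracellular matrix: FN1, TNC, POSTN, THBS1, THBS2, FBN1, ELN, VCAN, LUM and DCN. They were listed by name as matrix glycoproteins and proteoglycans, with earlier results of these data known. Each of the 10 had 1 transcript cluster, the unit in which the array reports a gene. Genes were tested if 3 or more of the 15 arrays showed them at or above the 20th percentile of signal, which 16872 of 18417 named genes met. Of the 10 matrix genes 9 were tested, and DCN was below that percentile on all 15 arrays.

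The matrix outside fibroblasts is made of collagens together with glycoproteins that link them to each other and to the cell surface, and proteoglycans that carry long sugar chains. Fibronectin (FN1) is assembled into fibrils through integrins and forms an early scaffold for other matrix proteins. Tenascin-C (TNC), periostin (POSTN) and the thrombospondins (THBS1, THBS2) are matricellular proteins, which sit in the matrix but act mainly on cell adhesion and signalling. Fibrillin-1 (FBN1) forms the microfibrils on which elastin (ELN) is laid down. Versican (VCAN) is a large proteoglycan that binds hyaluronan, and lumican (LUM) and decorin (DCN) are small leucine-rich proteoglycans that bind collagen fibrils. In the joint, the synovial fibroblasts that make these proteins line the cavity.

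The study asked what glucosamine (GlcN), an amino sugar taken for joint pain, does to gene expression in cells exposed to the inflammatory cytokine interleukin-1β (IL-1β). GlcN feeds the pathway that puts O-GlcNAc, a single sugar, on nuclear and cytoplasmic proteins, and alloxan inhibits O-GlcNAc transferase, the enzyme of that step. Total RNA of MH7A, an established human synovial cell line, was hybridised to Human Gene 1.0 ST arrays (Affymetrix). There were 5 conditions and 3 experiments, and every experiment had a single array per condition. All conditions were cultures of this 1 line, so that the 3 experiments do not stand for different donors. The conditions were IL-1β with GlcN and alloxan, IL-1β with GlcN, IL-1β with alloxan, IL-1β alone, and resting cells given none of the 3 agents. IL-1β was given at 15 pg/ml for 13 h. GlcN was given at 5 mM from 2.5 h before IL-1β. Alloxan was given at 5 mM for 30 min and at 2 mM after that, doses that the labels state for cells that also received GlcN. All values are log2 signals as deposited, and differences are log2 differences taken within an experiment. A call is an adjusted p under 0.05 over all genes tested.

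The stretches of DNA just upstream of 4 members are printed because these are the members whose signal differed between IL-1β with GlcN and IL-1β alone. They are the 250 bases before the annotated transcript start, written 5′ to 3′ on the gene's strand, from RefSeq (GRCh38.p14). The windows are chr13:37598769-37599018 on the minus strand for POSTN, chr15:39580829-39581078 on the plus strand for THBS1, chr6:169253847-169254096 on the minus strand for THBS2 and chr9:115118158-115118407 on the minus strand for TNC. Capitals mark matches, on either strand, to 5 short motifs: the TATA box (TATAAA), the CCAAT box (CCAAT), the GC box (GGGCGG), the AP-1 motif (TGANTCA) and the TEAD motif (GGAATG).
POSTN: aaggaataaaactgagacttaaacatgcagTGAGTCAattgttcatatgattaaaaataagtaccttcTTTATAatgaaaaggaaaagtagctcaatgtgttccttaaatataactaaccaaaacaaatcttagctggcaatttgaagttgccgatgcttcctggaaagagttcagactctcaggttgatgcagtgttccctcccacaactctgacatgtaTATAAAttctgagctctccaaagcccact
THBS1: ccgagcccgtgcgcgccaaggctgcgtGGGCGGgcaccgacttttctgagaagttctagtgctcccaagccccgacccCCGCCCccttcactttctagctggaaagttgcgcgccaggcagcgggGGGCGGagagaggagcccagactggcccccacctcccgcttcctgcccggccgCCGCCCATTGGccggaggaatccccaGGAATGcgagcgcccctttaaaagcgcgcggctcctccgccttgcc
THBS2: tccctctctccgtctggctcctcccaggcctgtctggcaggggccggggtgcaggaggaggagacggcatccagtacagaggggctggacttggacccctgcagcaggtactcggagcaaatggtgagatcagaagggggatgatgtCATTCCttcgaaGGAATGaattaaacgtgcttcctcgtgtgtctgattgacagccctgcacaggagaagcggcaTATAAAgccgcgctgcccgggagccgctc
TNC: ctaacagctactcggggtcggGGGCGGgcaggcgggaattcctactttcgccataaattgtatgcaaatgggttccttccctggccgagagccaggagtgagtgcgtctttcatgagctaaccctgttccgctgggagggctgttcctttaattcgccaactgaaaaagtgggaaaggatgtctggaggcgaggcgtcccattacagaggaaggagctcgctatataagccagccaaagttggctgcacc
POSTN and THBS2 each held TATAAA starting 29 bases before the start, and THBS1 and TNC held no exact match to it. TNC has tatataa close to its start, which differs from TATAAA and was not counted, so no lack of a TATA-like stretch is meant. POSTN also held TATAAA on the opposite strand, 182 bases before the start. The POSTN window had an AP-1 match 220 bases before the start. THBS1 had 4 GC box matches, a CCAAT match on the opposite strand next to one of them, and a TEAD match at 46 bases. THBS2 had 2 TEAD matches, at 103 and 91 bases. TNC had a single GC box match at 229 bases. Of 35116 RefSeq windows of the same length, 10.7% held TATAAA, 32% CCAAT, 42.6% GGGCGG, 6.57% the AP-1 motif and 11.9% the TEAD motif. Sequences were matched for 7 of the 10 genes, and LUM, DCN and ELN are named only. These matches describe the letters and are not sites shown to be used.

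FN1 and THBS1 were among the brightest genes of the arrays. FN1 lay between percentiles 94.7 and 98.2 of its arrays and THBS1 between percentiles 93.7 and 98.3. TNC, LUM, FBN1 and ELN were above the array median on all 15 arrays, POSTN on 8 and VCAN on 9. THBS2 (percentiles 39.8 to 48.8) and DCN (percentiles 9.2 to 19.7) were above it on none. Signals of different genes come from different probes, so these percentiles place each gene within its arrays and give no ratio between genes.

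The DCN signal was between 3.85 and 4.70 on all arrays. With IL-1β, GlcN and alloxan it was 3.85, 3.85 and 4.54 in experiments 1, 2 and 3. It was 3.91, 3.88 and 4.62 with IL-1β and GlcN, 3.91, 3.88 and 4.42 with IL-1β and alloxan, 4.19, 3.88 and 4.70 with IL-1β alone, and 3.91, 3.97 and 4.52 in resting cells. Decorin is one of the most abundant proteoglycans of fibroblast matrix in tissues, and in MH7A its cluster was dimmer than most others on every array. No statement on a difference was drawn from these values.

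Experiments differed more than conditions for most members. The array median was between 6.18 and 6.21 in experiment 1, between 7.14 and 7.19 in experiment 2 and between 7.49 and 7.54 in experiment 3. The shares that follow include this difference of whole arrays, so they do not describe the members alone. The experiment accounted for 98.7% of the sum of squares of ELN, 94.5% of THBS2, 89.7% of FN1, 85% of TNC, 84.3% of VCAN, 77.9% of THBS1 and 74.9% of FBN1. It accounted for 40.3% of that of LUM and 25.9% of that of POSTN. POSTN was the member with the widest range of condition means, 1.40 log2 units, and conditions accounted for 66.2% of its sum of squares.

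The label of a synovial fibroblast-like line was checked with marker lists. Of 13 fibroblast markers 8 were above the array median on all 15 arrays, while CDH11 was above it on 2 and PDGFRA, PDPN, FAP and S100A4 on none. None of 7 macrophage and leukocyte markers and none of 4 endothelial markers was above the median on any array. Of 4 epithelial markers KRT14 was above it on all 15 arrays, CDH1 on 6, and EPCAM and KRT5 on none.

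**Figure D1:**
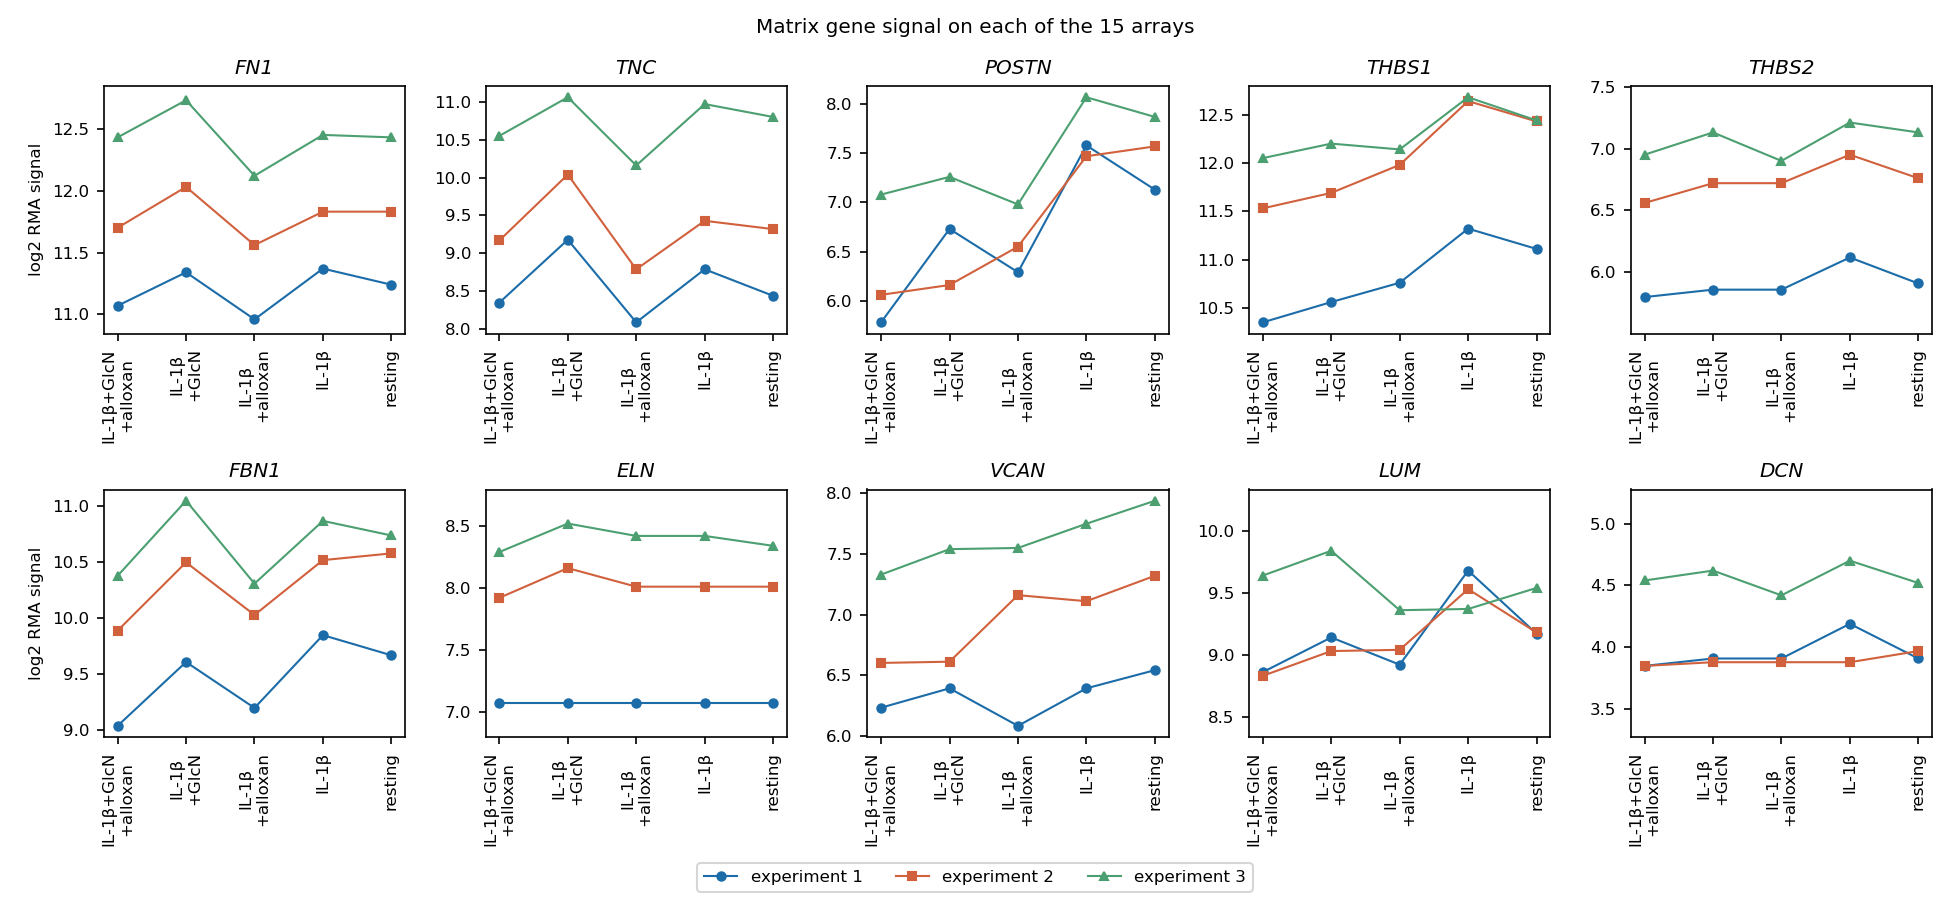
Log2 signal (y axis) of the 10 matrix genes in the 5 conditions (x axis), with 1 point per array and 1 line per experiment, and no averaging. The lines of an experiment run at their own height, and POSTN and THBS1 are lower in the 3 conditions with GlcN or alloxan than in IL-1β alone in every experiment, while TNC peaks with IL-1β and GlcN and is lowest with IL-1β and alloxan.

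Across the 5 conditions, 7 of the 9 tested members differed (limma F test), where 25% of all genes did. The smallest adjusted p values were those of TNC (5.57e-05), FBN1 (0.000198) and THBS1 (0.000221). LUM (adjusted p = 0.296) and ELN (adjusted p = 0.185) did not pass.

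With GlcN added to IL-1β, POSTN and THBS1 fell the most of the members, THBS2 fell slightly and TNC rose. POSTN, which is deposited in wounded and inflamed connective tissue, had 6.73, 6.16 and 7.26 with IL-1β and GlcN in experiments 1, 2 and 3, against 7.58, 7.47 and 8.07 with IL-1β alone. Every GlcN array was below every array of IL-1β alone. The difference was -0.99 ± 0.27 (SD, n = 3 experiments, adjusted p = 0.00479), or 0.504 of the level with IL-1β alone.

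THBS1, which binds CD36, CD47 and integrins and activates latent TGF-β, had 10.56, 11.69 and 12.20 with IL-1β and GlcN, against 11.32, 12.64 and 12.68 with IL-1β alone. It was lower with GlcN within each experiment, by 0.77, 0.95 and 0.47, although the groups overlapped when the experiments were pooled. The difference was -0.73 ± 0.24 (SD, n = 3, adjusted p = 0.000644), a ratio of 0.603. The RNA was of whole cultures of 1 cell line, so a change in all cells and a change in part of them cannot be told apart.

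THBS2, a relative of THBS1 that limits vessel growth and binds matrix proteases, had 5.86, 6.72 and 7.13 with IL-1β and GlcN, against 6.12, 6.95 and 7.21 with IL-1β alone. It was lower in all 3 experiments, but by only 0.19 ± 0.10 on the log2 scale (log2 difference -0.19, SD, n = 3, adjusted p = 0.0323). TNC, which loosens the attachment of cells to fibronectin, went the other way, with 9.18, 10.04 and 11.06 with IL-1β and GlcN, against 8.79, 9.43 and 10.97 with IL-1β alone. It was higher with GlcN in all 3 experiments, and least so in experiment 3 (0.38, 0.61 and 0.10). The difference was 0.36 ± 0.26 (SD, n = 3, adjusted p = 0.0192), a ratio of 1.29.

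Thus 3 of 9 members were lower and 1 was higher with GlcN, where 6.62% of all genes were lower and 5.29% higher. The median of the members was -0.19, against 0.0069 over all genes. FN1 (0.15 ± 0.16, adjusted p = 0.136), FBN1 (-0.026 ± 0.21, adjusted p = 0.896), ELN (0.083 ± 0.079, adjusted p = 0.328), VCAN (-0.24 ± 0.25, adjusted p = 0.277) and LUM (-0.19 ± 0.57, adjusted p = 0.573) did not pass. The fibroblast markers THY1 (-0.44), FAP (-0.82), COL3A1 (-0.68) and COL1A1 (-0.46) were among 5 of 13 on their list that were also lower with GlcN, and their part in the result was not tested.

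The calls for GlcN rest on the experiment as a block and on the spread of all 15 arrays. None of the 9 members was called with no replicate block or in a fit of the compared arrays alone. After adjustment, none was called by the methods' unpaired test run on the deposited values. The study ran that test on values normalized further and with no correction for multiple testing, so this is not the study's own result. THBS1 passed with each single experiment or array left out, with adjusted p between 0.00087 and 0.0496. POSTN did not pass without experiment 2 (-0.83, adjusted p = 0.0815) or 3 (-1.08, adjusted p = 0.0577), TNC without experiment 1 (0.35, adjusted p = 0.148) or 2 (0.24, adjusted p = 0.341), and THBS2 without experiment 1 (-0.15, adjusted p = 0.245) or 2 (-0.17, adjusted p = 0.246). The THBS2 call was also lost without any of 4 single arrays (adjusted p between 0.0913 and 0.119).

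With alloxan added to IL-1β, 6 of 9 members fell and none rose, where 7.21% of all genes fell. The members that fell were the adhesive and matricellular genes FN1, TNC, POSTN, THBS1 and THBS2, and the microfibril gene FBN1. TNC had 8.09, 8.79 and 10.16 with IL-1β and alloxan, against 8.79, 9.43 and 10.97 with IL-1β alone. Each alloxan array was below its partner by a similar amount, and the difference was -0.72 ± 0.089 (SD, n = 3, adjusted p = 0.000432). TNC was thus higher with GlcN and lower with alloxan, relative to the same IL-1β arrays.

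POSTN had 6.29, 6.55 and 6.98 with IL-1β and alloxan, below all arrays of IL-1β alone given above, a difference of -1.10 ± 0.19 (adjusted p = 0.00257). THBS1 had 10.76, 11.98 and 12.14, and its difference was -0.59 ± 0.062 (adjusted p = 0.00243). FBN1 had 9.20, 10.03 and 10.31 with IL-1β and alloxan, against 9.85, 10.52 and 10.87 with IL-1β alone, or -0.56 ± 0.079 (adjusted p = 0.00107). All 3 genes were lower with alloxan in every experiment.

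FN1 had 10.96, 11.56 and 12.12 with IL-1β and alloxan, against 11.37, 11.83 and 12.45 with IL-1β alone. The fall was small, -0.34 ± 0.069 (SD, n = 3, adjusted p = 0.00321), and alike in the 3 experiments. THBS2 had 5.86, 6.72 and 6.90 with IL-1β and alloxan, with a difference of -0.27 ± 0.038 (adjusted p = 0.00589). In experiments 1 and 2 these values equalled those with IL-1β and GlcN to the second decimal. THBS2 had 4 distinct values on the 5 arrays of each of these experiments. Its falls with GlcN and with alloxan are thus not separate results there. ELN was the same to the second decimal with and without alloxan in each experiment (-0.00032 ± 0.00055, 95% interval -0.11 to 0.10), while LUM (-0.42 ± 0.38, adjusted p = 0.144) and VCAN (-0.15 ± 0.18, adjusted p = 0.514) did not pass.

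The median of the members with alloxan was -0.42, against 0.015 over all genes. Here too some fibroblast markers were lower, 5 of 13, where 7.21% of all genes were. Among them were PDGFRB (-0.80), COL1A2 (-0.82), COL1A1 (-0.68) and COL3A1 (-0.57). The median of the 13 was only -0.037, and 2 of them had a positive difference. Of 4 epithelial markers CDH1 was lower too (-0.41, adjusted p = 0.0443), and the part of either list in the result was not tested. The count was 3 without experiment 1, where POSTN (adjusted p = 0.0511), THBS1 (-0.60, adjusted p = 0.0837) and THBS2 (-0.27, adjusted p = 0.0872) did not pass, and 4 without experiment 2, where FN1 (-0.37, adjusted p = 0.0653) and THBS2 (-0.28, adjusted p = 0.0636) did not. Without experiment 3, POSTN (-1.11, adjusted p = 0.0604) did not pass and LUM (-0.63, adjusted p = 0.0159) did. No member was called with no replicate block or from the compared arrays alone. The methods' unpaired test, run on the deposited values and not on the study's further normalized ones, called none after adjustment.

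With GlcN and alloxan together, 5 of 9 members were lower than with IL-1β alone and none was higher, where 8.47% of all genes were lower. POSTN had 5.78, 6.06 and 7.08 with IL-1β, GlcN and alloxan, against 7.58, 7.47 and 8.07 with IL-1β alone. At -1.40 ± 0.41 (SD, n = 3, adjusted p = 0.000312), or 0.379 of the level with IL-1β alone, this was the largest difference of any member in the comparisons with IL-1β alone. THBS1 had 10.35, 11.53 and 12.05 with IL-1β, GlcN and alloxan, a difference of -0.90 ± 0.25 (adjusted p = 8.19e-05).

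FBN1 had 9.04, 9.89 and 10.38 with all 3 agents, and was lower than with IL-1β alone by 0.80, 0.62 and 0.48 in experiments 1, 2 and 3. The difference was -0.64 ± 0.16 (SD, n = 3, adjusted p = 0.000249). THBS2 had 5.80, 6.56 and 6.95 with all 3 agents (-0.32 ± 0.067, adjusted p = 0.00114). TNC had 8.35, 9.17 and 10.55 with all 3 agents, below its partner with IL-1β alone in each experiment (-0.37 ± 0.11, adjusted p = 0.0121). The TNC call was lost without experiment 1 (-0.33, adjusted p = 0.148) or 2 (-0.43, adjusted p = 0.0671), and without 3 single arrays (adjusted p between 0.0503 and 0.0524).

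FN1 (-0.15 ± 0.14, adjusted p = 0.0973), VCAN (-0.36 ± 0.19, adjusted p = 0.0692), LUM (-0.41 ± 0.60, adjusted p = 0.136) and ELN (-0.073 ± 0.069, adjusted p = 0.38) did not pass. The median of the members was -0.37, against -0.0029 over all genes. Of 13 fibroblast markers 7 were also lower with GlcN and alloxan, with COL3A1 at -1.05, COL1A2 at -0.99 and COL1A1 at -0.90. So were 3 of 4 endothelial markers, VWF (-0.19), CDH5 (-0.22) and TEK (-0.18), all dim on these arrays. The part of either list in the result was not tested. No member was called with no replicate block or from the compared arrays alone. The methods' unpaired test, run on the deposited values and not on the study's further normalized ones, called none after adjustment.

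**Figure D2:**
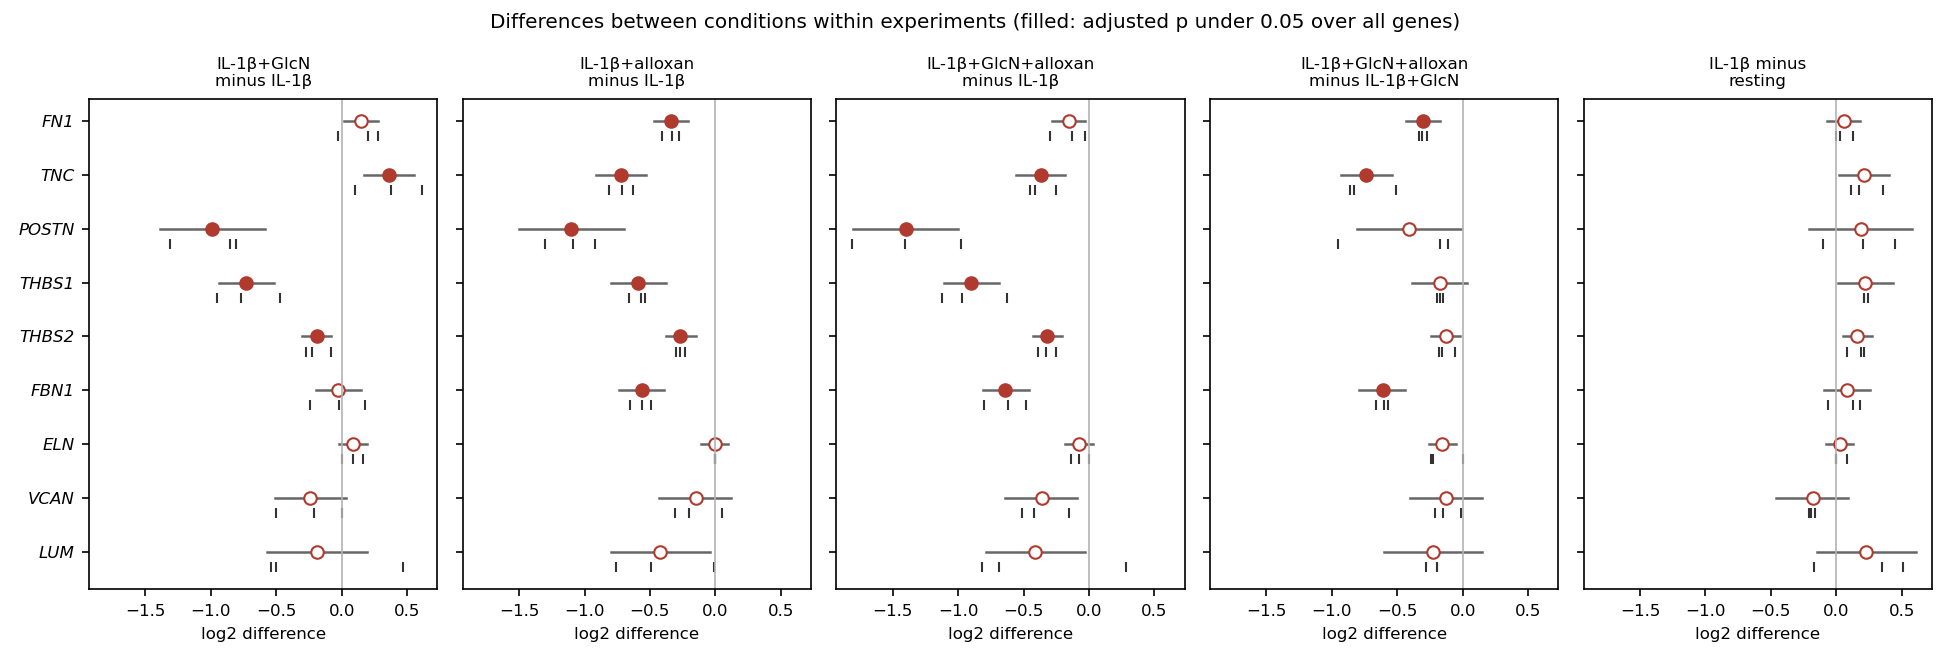
Log2 differences (x axis) of the 9 tested members (y axis) in 5 comparisons. Circles are means over 3 experiments, filled where called, bars are 95% intervals of the limma fit, and ticks below are the 3 within-experiment differences. POSTN and THBS1 lie left of 0 in the 3 comparisons with IL-1β alone, TNC lies right of 0 with GlcN and left of 0 with alloxan, and the ticks of LUM fall on both sides of 0 with GlcN.

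When alloxan was added to GlcN and IL-1β, TNC, FBN1 and FN1 fell, which is 3 of 9 where 3.52% of all genes fell. TNC had 8.35, 9.17 and 10.55 with IL-1β, GlcN and alloxan, against 9.18, 10.04 and 11.06 with IL-1β and GlcN. It was lower in each experiment, by 0.74 ± 0.19 (log2 difference -0.74, SD, n = 3, adjusted p = 0.000772). FBN1 had 9.04, 9.89 and 10.38 with IL-1β, GlcN and alloxan, against 9.61, 10.50 and 11.05 with IL-1β and GlcN, or -0.61 ± 0.049 (adjusted p = 0.00139). FN1 had 11.07, 11.70 and 12.43 with IL-1β, GlcN and alloxan, against 11.34, 12.03 and 12.73 with IL-1β and GlcN, or -0.30 ± 0.03 (adjusted p = 0.0115).

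POSTN and THBS1, the members that fell the most with GlcN, did not pass when alloxan was added to it. Their differences were -0.41 ± 0.47 (adjusted p = 0.208, 95% interval -0.81 to -0.014) and -0.17 ± 0.027 (adjusted p = 0.313, 95% interval -0.39 to 0.036). For POSTN, most of this came from experiment 1 (-0.95, against -0.11 and -0.17 in experiments 2 and 3). All 9 members had a negative mean difference, with a median of -0.23 against -0.0069 over all genes. Of 13 fibroblast markers COL1A1 (-0.44) fell, as did the endothelial markers TEK (-0.25) and VWF (-0.19), and their part was not tested.
These calls depended on experiment 2, without which none passed (TNC -0.67, adjusted p = 0.0528, FBN1 -0.62, adjusted p = 0.066, FN1 -0.29, adjusted p = 0.168). FN1 also did not pass without experiment 3 (-0.30, adjusted p = 0.103) or without either of 2 single arrays (adjusted p = 0.0505 and 0.0538). No member was called with no replicate block or from the compared arrays alone. The methods' unpaired test, run on the deposited values and not on the study's further normalized ones, called none after adjustment.

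In cells that had alloxan, adding GlcN gave no call by limma among the 9 members, where 3.53% of all genes were called. At an unadjusted p under 0.05, which 16.3% of all genes had, there were 3: FN1 (0.19 ± 0.11, adjusted p = 0.123), TNC (0.35 ± 0.074, adjusted p = 0.0543) and THBS1 (-0.32 ± 0.20, adjusted p = 0.112). TNC was close to the threshold and passed it when dim genes were filtered at the 50th percentile (adjusted p = 0.0351) or the arrays were quantile-normalized (adjusted p = 0.0454). 

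Whether alloxan changed the effect of GlcN was tested as an interaction, the difference between the GlcN effect with alloxan and that without. No member was called by limma, where 0.0711% of all genes (12 genes) were. At an unadjusted p under 0.05 there were 3 of 9 members and 11% of all genes. The interaction of POSTN was 0.69 ± 0.30 (adjusted p = 0.382), that of THBS1 0.41 ± 0.069 (adjusted p = 0.341) and that of ELN -0.16 ± 0.14 (adjusted p = 0.436). For POSTN and THBS1 the value was positive in all 3 experiments: the GlcN difference was less negative in the presence of alloxan. For TNC it was -0.018 ± 0.28, with a 95% interval from -0.29 to 0.25.

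Between IL-1β alone and resting cells, no member was called by limma, where 0% of all genes were. At an unadjusted p under 0.05 there were 977 genes (5.79%) and 3 of 9 members, THBS1 (0.22 ± 0.015, adjusted p = 0.841), THBS2 (0.16 ± 0.071, adjusted p = 0.65) and TNC (0.21 ± 0.13, adjusted p = 0.792). THBS1 had 11.32, 12.64 and 12.68 with IL-1β alone, against 11.11, 12.43 and 12.44 in resting cells. TNC had 8.79, 9.43 and 10.97 with IL-1β alone, against 8.44, 9.32 and 10.80 in resting cells. These members were a little higher with IL-1β in each experiment, and VCAN was a little lower in each (-0.18 ± 0.025, adjusted p = 0.905).

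Set against resting cells in place of IL-1β alone, IL-1β with GlcN had 2 members higher, TNC (0.57 ± 0.27, adjusted p = 0.00169) and FN1 (0.20 ± 0.10, adjusted p = 0.0434), where 4.94% of all genes were higher. It had 3 lower, POSTN (-0.80 ± 0.53, adjusted p = 0.0143), THBS1 (-0.51 ± 0.25, adjusted p = 0.0058) and VCAN (-0.42 ± 0.28, adjusted p = 0.049), where 7.58% were lower. VCAN had 6.39, 6.61 and 7.54 with IL-1β and GlcN, against 6.54, 7.32 and 7.94 in resting cells. Its call lay at the threshold.
IL-1β with alloxan had 5 members lower than resting cells, where 8.03% of all genes were lower: POSTN, FN1, TNC, FBN1 and THBS1, with differences between -0.91 and -0.29. IL-1β with GlcN and alloxan had 4 lower, where 8.83% were lower: POSTN (-1.21 ± 0.38), THBS1 (-0.68 ± 0.27), FBN1 (-0.56 ± 0.18) and VCAN (-0.55 ± 0.21). Between the agents, 3 members were higher with GlcN than with alloxan, where 7.66% of all genes were: TNC (1.08 ± 0.17, adjusted p = 1.53e-05), FBN1 (0.54 ± 0.18, adjusted p = 0.000912) and FN1 (0.49 ± 0.12, adjusted p = 0.000216). All these comparisons share arrays with each other, so that their calls are not independent. Without experiment 2 no member was called against resting cells with GlcN or with alloxan. Leaving out a single array ended the FN1 call with GlcN in 5 of 6 cases and the VCAN call in the same 5 (without the resting array of experiment 2, adjusted p = 0.112 and 0.177), and also ended calls of POSTN with GlcN, THBS1 with alloxan and VCAN with both agents. With no replicate block no member was called in any of the 4 comparisons. After adjustment, the methods' unpaired test on the deposited values, not the study's further normalized ones, called none there either. From the compared arrays alone only TNC and FN1 were called, both between GlcN and alloxan.

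By mean signal with the experiment mean taken out, POSTN, THBS1 and THBS2 were highest with IL-1β alone, then in resting cells, and lowest with IL-1β, GlcN and alloxan. In POSTN the step between resting cells (0.55 ± 0.22) and IL-1β with GlcN (-0.25 ± 0.32) was the only one between neighbours that was called (adjusted p = 0.0143). In THBS1 it was the step between resting cells (0.27 ± 0.12) and IL-1β with alloxan (-0.1 ± 0.057, adjusted p = 0.0257). No step between neighbours was called in THBS2.
TNC and FN1 were highest with IL-1β and GlcN and lowest with IL-1β and alloxan. The highest step of TNC was called, with 0.55 ± 0.17 for IL-1β with GlcN and 0.19 ± 0.098 for IL-1β alone (adjusted p = 0.0192), and no step of FN1 was. In FBN1 the 2 conditions with alloxan (-0.30 ± 0.051 and -0.38 ± 0.078) lay below the 3 without it, the lowest of which was resting cells (0.18 ± 0.10, adjusted p = 0.00232 for the step). VCAN was highest in resting cells (0.30 ± 0.073), and no step of VCAN, LUM or ELN was called.

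LUM was the member whose experiments went apart. With IL-1β and GlcN it had 9.14, 9.03 and 9.84, against 9.68, 9.53 and 9.37 with IL-1β alone. It was thus lower with GlcN in experiments 1 and 2 (-0.54 and -0.50) and higher in experiment 3 (0.47). With GlcN and alloxan the differences were -0.82, -0.69 and 0.28, and with alloxan -0.76, -0.49 and -0.01. The array of IL-1β alone was the highest of the 5 for LUM in experiments 1 and 2, but close to the lowest in experiment 3. Without experiment 3 LUM passed as lower with GlcN (-0.52, adjusted p = 0.0177), with both agents (-0.76, adjusted p = 0.00408) and with alloxan (-0.63, adjusted p = 0.0159). Leaving out only the IL-1β array of that experiment gave -0.46 (adjusted p = 0.0265), -0.68 (adjusted p = 0.00238) and -0.69 (adjusted p = 0.00437).

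ELN gave little information. It had 7.07 on all 5 arrays of experiment 1, with 2 distinct values among them, and 3 distinct values in experiment 2. Equal values within an experiment were common in the deposited table, and 61.1%, 49.7% and 51.3% of the tested genes had some in experiments 1, 2 and 3. In experiments 2 and 3 ELN had 8.16 and 8.52 with IL-1β and GlcN, against 8.01 and 8.42 with IL-1β alone.

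After the experiment means were removed, the likeness of the members' patterns over the 15 arrays is given as correlations, which describe arrays sharing 5 conditions. POSTN and THBS1 ran together (r = 0.944), and THBS1 and THBS2 did so as well (r = 0.854). FN1 ran with TNC (r = 0.904) and FBN1 (r = 0.826). FBN1 was also close to THBS2 (r = 0.799) and POSTN (r = 0.753), closer than to TNC (r = 0.725). TNC and THBS1 did not run together (r = 0.0894). ELN and VCAN had r = -0.0807.

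**Figure D3:**
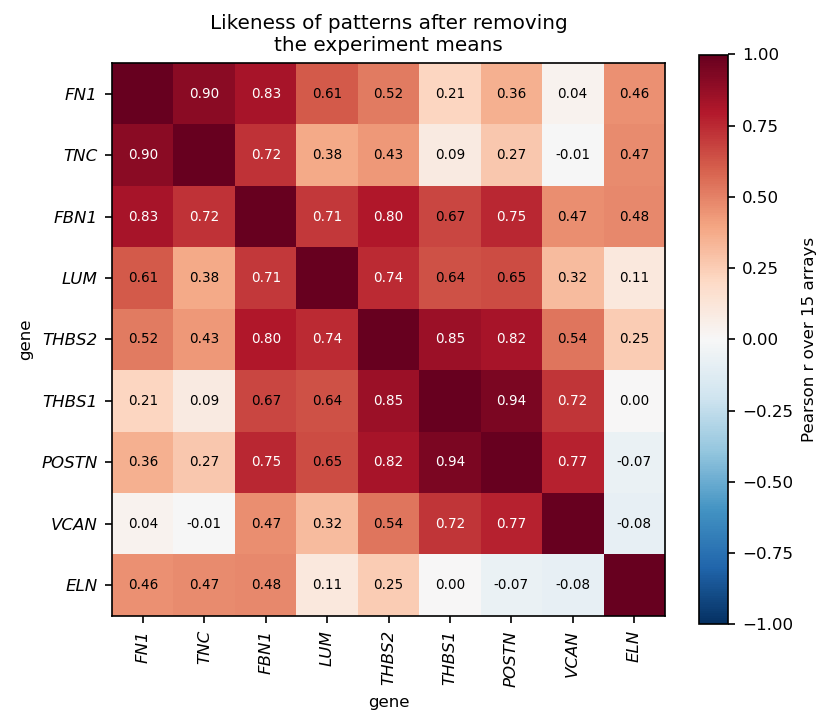
Pearson correlation (colour and printed value, n = 15 arrays) between the 9 tested members after subtraction of each gene's mean in each experiment, with genes on both axes. FN1 and TNC (r = 0.904) and POSTN and THBS1 (r = 0.944) are the closest pairs, TNC and THBS1 have r = 0.0894, and FBN1 has r between 0.706 and 0.826 with FN1, THBS2, POSTN, TNC and LUM.

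Among all tested genes outside the 10, the pattern of THBS1 was most like those of PTPRF (r = 0.985), FASN (0.981) and ADGRG6 (0.975). That of POSTN was most like GFRA1 (0.972), SEMA3C (0.97) and MYLK (0.965), and that of THBS2 most like ARAP1 (0.928), SLC39A13 (0.924) and ERAP2 (0.914). TNC was nearest to SRGAP1 (0.967), SLC9A9 (0.954) and ANK2 (0.949), and FN1 to SIL1 (0.94), FNDC3B (0.94) and SLC9A9 (0.934), so that SLC9A9 was on both lists. FBN1 was nearest to IGF2R (0.983), KIAA0319L (0.97) and TENM3 (0.97). VCAN was nearest to WDR35 (0.92), ANXA5 (0.916) and ETV1 (0.915). LUM had the lowest values, with ARSA (0.901), GANAB (0.887) and GHDC (0.849). For ELN they were MEGF11 (0.963), APOBEC3F (0.961) and LINC02370 (0.959). These are the highest of 16872 genes over 15 arrays and are given as a description.

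Other genes of the same matrix families were counted on lists that exclude the 10 members, where of all genes 6.62% were lower with GlcN, 7.21% with alloxan, 8.47% with both agents and 3.52% when alloxan was added to GlcN. Basement membrane glycoproteins, the laminins, nidogens, perlecan and agrin of the sheet under cell layers, had the largest share of lower calls of the 6 lists. With alloxan 10 of 13 were lower, among them LAMB1 (-0.56), LAMA1 (-0.38), HSPG2 (-0.63) and LAMA4 (-0.61), and the median was -0.40 against 0.015 over all genes. With GlcN 6 were lower and 1 was higher, with LAMA5 at -0.55, NID1 at -0.54, LAMB1 at -0.41 and HSPG2 at -0.46, and the median was -0.26. With both agents 10 of 13 were lower (median -0.56), led by LAMB1 (-0.86), LAMA5 (-0.77), HSPG2 (-0.88) and AGRN (-0.83). Adding alloxan to GlcN lowered 6 of 13, among them LAMA2 (-0.49).

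Of the receptors for the matrix, 7 of 20 were lower with GlcN, among them the integrin subunits ITGB5 (-0.41), ITGA3 (-0.38), ITGB8 (-0.54) and ITGA5 (-0.48), the last being the α subunit of the fibronectin receptor. With alloxan 4 were lower, ITGA4 (-0.45), ITGA6 (-0.53), ITGA3 (-0.33) and ITGAV (-0.24), and with both 7 were, with ITGA3 at -0.59 and ITGB5 at -0.50. Adding alloxan to GlcN lowered ITGA2 (-0.42) alone.

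Of the elastic fibre and microfibril genes, 2 of 16 were lower with GlcN, LTBP4 (-0.44) and FBN2 (-0.26). With alloxan 3 were lower, FBN2 (-0.73), EFEMP1 (-0.32) and FBLN1 (-0.23), and with both agents 5 were, with FBN2 at -0.84, LTBP4 at -0.42, FBLN1 at -0.29 and LTBP3 at -0.27. FBN2, the fibrillin of developing tissue, was lower with alloxan as FBN1 was. Adding alloxan to GlcN lowered FBN2 (-0.58) and LTBP1 (-0.27). The count of 2 of 16 with GlcN is small, and it was not tested against the 6.62% of all genes. The median of the list was near 0 with GlcN (-0.01) and -0.074 with both agents.

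Of 18 matricellular and adhesive relatives, CCN1 (-0.80) and SPARC (-0.40) were lower with GlcN, where 6.62% of all genes were. This count too is small and was not tested against that share. With both agents CCN1 (-0.87), SPARC (-0.39) and THBS3 (-0.41) were lower. With alloxan none was lower and CCN2 was higher (0.31). Of the hyalectans and link proteins, none of 7 was called with GlcN. HAPLN1, which ties versican and its relatives to hyaluronan, was lower with alloxan (-0.60), with both agents (-0.37) and when alloxan was added to GlcN (-0.37), and HAPLN3 was higher with alloxan (0.29). No small leucine-rich proteoglycan of 7 tested was called by limma in any of the comparisons of treated cells, and 10 of 12 on that list were above the array median on no array. The lowest p among them with GlcN was that of TSKU (0.15, adjusted p = 0.166). When GlcN was added in the presence of alloxan, 3.53% of all genes were called. Of basement membrane glycoproteins 3 of 13 were lower, LAMA5 (-0.37), LAMB1 (-0.30) and NID1 (-0.30). Of matricellular relatives 3 of 18 were lower, CCN2 (-0.46), CCN1 (-0.67) and SPARC (-0.25). Of receptors 2 of 20 were lower, ITGB5 (-0.36) and ITGA5 (-0.45). The other matrix lists had no call there, and of 13 fibroblast markers THY1 (-0.35) was lower. IL-1β alone gave no call on any list, as it gave none over all genes. With no replicate block, no gene of these lists was called.

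**Figure D4:**
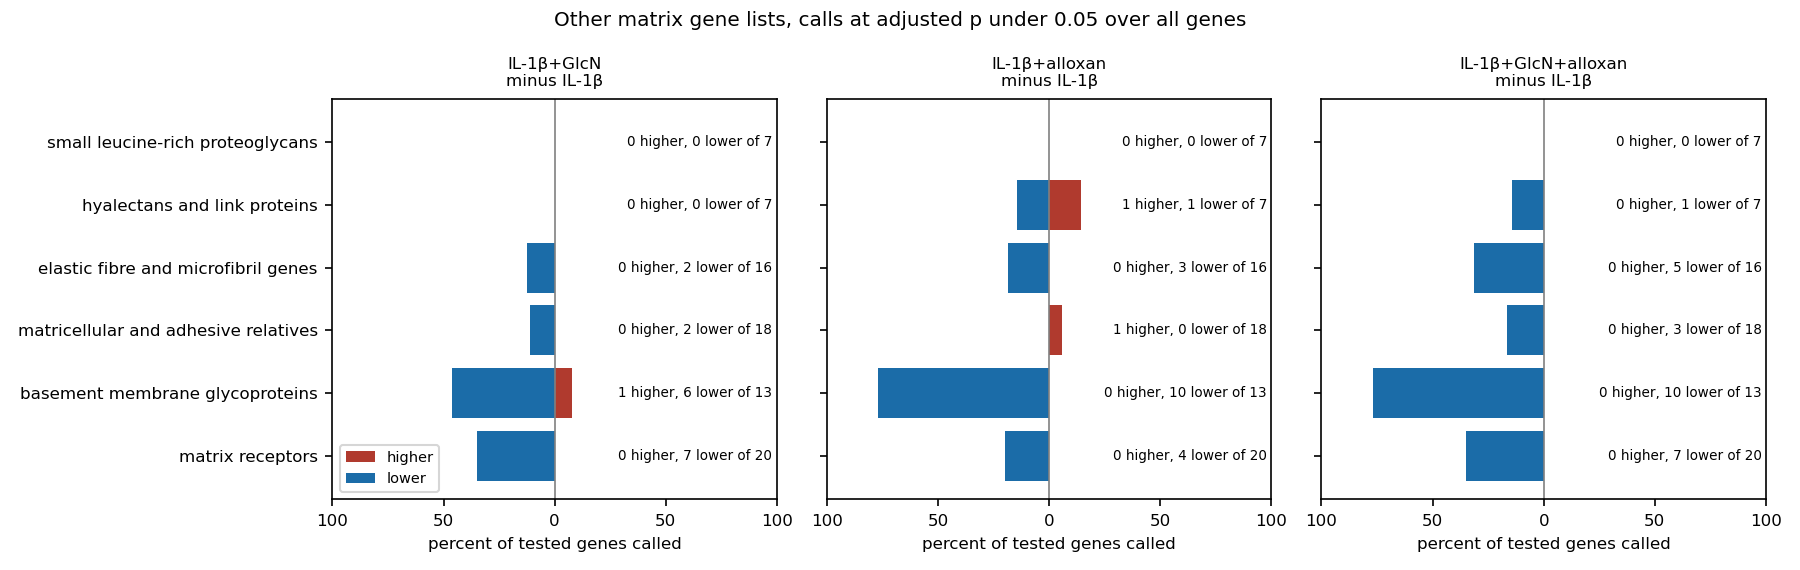
Percent of the tested genes of 6 matrix lists (y axis) called higher (red, right of 0) or lower (blue, left of 0) in 3 comparisons with IL-1β alone, with the counts printed. The basement membrane list has the longest bars, with 10 of 13 genes lower with alloxan and with both agents, and the small leucine-rich proteoglycans have none.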

How the data were processed

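MH7A RNA was hybridised to 15 Human Gene 1.0 ST arrays. The deposited table holds log2 RMA signals of 33297 transcript clusters. Per the labels, the authors made them with Expression Console (Affymetrix), whose version is not given in the sources used here. Its background correction and normalization were kept. No detection call was used. Precision is limited by the number of arrays.

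Conditions and experiment numbers came from the titles. No pair of arrays was a duplicate (highest correlation 0.996). Arrays sharing a number deviated alike: deviations from group means correlated at 0.621 to 0.848 in the 30 pairs sharing a number. In 60 pairs not sharing one they correlated at -0.656 to -0.068. Deviations within a group cancel out, so these negative values follow in part from the positive ones and are no separate result. The values do not show whether the cultures were paired. The labels do not say whether experiments were separate cultures, and p-values then measure only the spread between these samples.

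Symbols came from the platform annotation, updated through RefSeq (GRCh38.p14). Of the clusters, 19460 had 1 symbol, 1754 had several and were left out, and 12083 had none. The brightest cluster stood for a gene. The fit was limma 3.58.1 (R 4.3.3, lmFit and eBayes) on all 5 groups with the experiment as a block (8 residual degrees of freedom, 11.1 after moderation), two-sided, with Benjamini-Hochberg adjustment over 16872 genes. The study's methods name an unpaired t-test, run on values normalized further, a step not repeated here. The study made no correction for multiple testing. The unpaired t-test on the deposited values was an alternative, as were no block, other filters and scalings, and leaving out arrays or experiments. Those for the comparisons of treated with resting cells and of GlcN with alloxan were chosen after seeing the data. The script was tested on simulated data. Tables and figures used Python 3.11.15, pandas 2.3.3 and matplotlib 3.10.9.

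The members and lists were chosen with earlier results of these data known. The text names all members, up to 4 called genes per list and comparison with the smallest p (up to 2 where none was called), and the 3 genes most like each member.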

Additional observations from a re-analysis of the deposited data

How the results depend on the processing

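The first set held the comparisons with IL-1β alone, alloxan added to GlcN, GlcN in the presence of alloxan, IL-1β against resting cells, and the interaction. It gave 18 calls among 63 values of the 9 members. All 18 kept their direction and their call with no filter on dim genes, with the mean over clusters, with quantile normalization and with an intensity trend with robust moderation. Of 15 that a filter at the 50th percentile left, 15 passed, and with equal medians 17 did, the exception being THBS2 with GlcN (-0.18, adjusted p = 0.0597). All 18 kept their direction but lost their call with no replicate block, with the methods' t-test and with only the groups compared in a fit with the replicate block. The number of members called was then 0 for GlcN, for GlcN with alloxan, for alloxan and for alloxan added to GlcN, and 0 of the 9 differed across the 5 conditions with no replicate block. Over all genes, the fit of only the groups compared called 1 gene for GlcN and 276 for GlcN with alloxan, against 2010 and 2958 in the fit of all arrays, and the fit with no replicate block called 4 and 1. At an unadjusted p under 0.05, the methods' t-test passed 0 members for GlcN, 1 for GlcN with alloxan and 1 for alloxan (POSTN in both), and 51, 28 and 9 of all genes. It ran on the deposited values, not on the further normalized ones of the study, so these are not the study's own counts. The fit and the t-test with no replicate block leave differences between experiments, those of the array medians included, in the spread. Neither was run on arrays scaled alike across experiments, so their losses do not tell about the members in particular. The fit of only the groups compared has fewer arrays, and the cause of the losses was not tested otherwise. GlcN in the presence of alloxan gave 1 member (TNC) with the filter at the 50th percentile and 1 with quantile normalization.

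With experiments or single arrays left out, the number of members called ranged from 1 to 5 for GlcN, from 3 to 7 for alloxan, from 0 to 4 for alloxan added to GlcN and from 4 to 8 for any difference. Without experiment 1, 2 or 3, the calls kept were 12, 9 and 15 of 18. The TNC call with GlcN was also lost without the GlcN array of experiment 1 (0.33, adjusted p = 0.0644) or 2 (0.28, adjusted p = 0.102) or the IL-1β array of experiment 2 (0.29, adjusted p = 0.0994). THBS2 with GlcN lost its call without the GlcN array of experiment 1 (adjusted p = 0.0913) or 2 (0.114) or the IL-1β array of experiment 1 (0.111) or 2 (0.119). TNC with GlcN and alloxan lost it without the array of that condition in experiment 1 (adjusted p = 0.0503) or the IL-1β array of experiment 1 (0.0518) or 3 (0.0524). FN1 with alloxan added to GlcN lost it without the array with both agents in experiment 1 (0.0505) or the GlcN array of experiment 3 (0.0538).

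The comparisons of treated with resting cells and of GlcN with alloxan gave 17 calls among 36 values, and their alternatives were chosen after seeing the data. All 17 kept their direction in every setting run. With quantile normalization 16 and with equal medians 16 kept their call. With no replicate block and with the methods' unpaired test on the deposited values the count was 0 in each of the 4 comparisons. With only the groups compared it was 0 in the 3 against resting cells and 2 between GlcN and alloxan. With experiments or single arrays left out, the count ranged from 0 to 6 for GlcN and from 0 to 5 for alloxan against resting cells. Without experiment 2 it was 0 for both.

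Values near 0 turned their sign. FBN1 with GlcN was 0.0069 with quantile normalization and ran from -0.13 to 0.08 with arrays left out. ELN with alloxan was 0.018 with quantile normalization, 0.019 with equal medians and ran from -0.013 to 0.013. LUM with GlcN in the presence of alloxan ran from -0.15 to 0.11, and FN1 with IL-1β against resting cells from -0.0057 to 0.092. The interaction ran from -0.023 to 0.084 for FN1, from -0.18 to 0.088 for TNC, from -0.12 to 0.042 for FBN1 and from -0.12 to 0.17 for VCAN. None of these was a call.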
